A study of Rattus norvegicus with 12 samples.

Results

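The 8 genes described here encode enzymes of cholesterol synthesis: Hmgcs1, Idi1, Fdps, Fdft1, Sqle, Lss, Cyp51 and Dhcr7. They were chosen by name, as the genes to which the RefSeq accession of a probe on the arrays belongs, and they are 8 of 15159 genes that could be named. They lie apart from each other in the rat genome (GRCr8): Hmgcs1 at chr2:53379457-53399807 and Fdps at chr2:176795192-176804816 share a chromosome, and Idi1 is at chr17:66539761-66547524, Fdft1 at chr15:41588114-41616168, Sqle at chr7:92758175-92773049, Lss at chr20:12090641-12118230, Cyp51 at chr4:30991693-31010147 and Dhcr7 at chr1:208444434-208460408. RNA came from sciatic nerve, dorsal root ganglia (DRG) and dorsal spinal cord of female rats aged 8 weeks, and 12 single-colour Agilent arrays were hybridised, 1 for each tissue, side and rat type. All rats had the peptide MBP84-104, a fragment of myelin basic protein, injected into the left sciatic nerve (50 μg in 5 μL), whereas the right nerve received the PBS vehicle according to the labels. The left nerve and left DRG were compared with the right ones of the same rats, and the left dorsal part of the lumbar enlargement with the dorsal cord rostral to it, so that the cord comparison was between levels of the cord and not between sides. Wild-type rats (Sprague-Dawley per the labels) were sampled on day 12 and nude rats on day 7. The nude rats were athymic (strain Hsd:RH-Foxn1rnu, genotype rnu-/-) and lack mature T cells. The study's text gives 1 week for the arrays and names heterozygous rnu+/- rats as the controls of the nude rats, and the labels were followed here. Each array held RNA pooled from 3 rats, so the spread between single rats was not measured, and in whole tissue fewer cells of a type and less RNA per cell cannot be told apart.

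Cells make cholesterol from acetyl-CoA. Hmgcs1 makes HMG-CoA, the precursor of mevalonate, Idi1 and Fdps build the isoprenoid farnesyl diphosphate, Fdft1 joins farnesyl units to squalene, Sqle and Lss close squalene into lanosterol, and Cyp51 and later Dhcr7 convert lanosterol to cholesterol. The factor SREBP2 (Srebf2) switches these genes on together when sterols are low, and oxysterols act through LXR to raise export genes such as Abca1. Myelin is the most cholesterol-rich membrane of the nervous system, and the cells that make it, Schwann cells in the nerve and DRG and oligodendrocytes in the cord, synthesise most of its cholesterol themselves. The synthesis genes are therefore set beside the myelin genes of each tissue.

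As the 8 genes are known to be switched on together, the bases before their start sites are shown for the 4 whose window held a CCAAT box, a motif bound by the factor NF-Y, which acts with SREBP2. The sequences are RefSeq's for the build GRCr8, cover the 250 bases before the start and were found for 6 of the 8 genes. Capitals mark CCAAT or its reverse complement ATTGG. The Hmgcs1 window is chr2:53382054-53382303 (+ strand) and lies inside the annotated gene interval, before a start downstream of the first base of that interval. The Idi1 window is chr17:66547525-66547774 (- strand), the Fdps window chr2:176804817-176805066 (- strand) and the Lss window chr20:12118231-12118480 (- strand).
Hmgcs1: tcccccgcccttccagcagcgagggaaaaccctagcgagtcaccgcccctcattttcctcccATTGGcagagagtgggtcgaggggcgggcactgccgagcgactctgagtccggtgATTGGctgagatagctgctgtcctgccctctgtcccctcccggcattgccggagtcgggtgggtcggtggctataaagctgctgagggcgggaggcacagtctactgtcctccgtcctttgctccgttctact
Idi1: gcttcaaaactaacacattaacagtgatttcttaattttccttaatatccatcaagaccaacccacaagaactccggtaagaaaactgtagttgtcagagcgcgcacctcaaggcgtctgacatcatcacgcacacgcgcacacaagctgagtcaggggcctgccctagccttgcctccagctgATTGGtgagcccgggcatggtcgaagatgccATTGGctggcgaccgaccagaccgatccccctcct
Fdps: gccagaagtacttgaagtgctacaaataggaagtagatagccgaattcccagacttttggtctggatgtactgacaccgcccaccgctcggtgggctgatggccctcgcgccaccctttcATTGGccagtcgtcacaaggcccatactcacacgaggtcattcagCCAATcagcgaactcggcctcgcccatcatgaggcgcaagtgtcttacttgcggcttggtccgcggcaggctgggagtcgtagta
Lss: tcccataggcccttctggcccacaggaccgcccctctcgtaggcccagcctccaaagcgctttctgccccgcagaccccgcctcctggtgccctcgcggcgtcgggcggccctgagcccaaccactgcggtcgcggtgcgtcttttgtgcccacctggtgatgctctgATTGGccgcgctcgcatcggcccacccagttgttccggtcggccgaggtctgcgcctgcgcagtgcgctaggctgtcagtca

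CCAAT stood on either strand in 4 of the 6 windows and in 34.0% of the 33469 promoter windows of the same length in the genome. The GC box GGGCGG, searched on both strands, stood in 5 of the 6, all but Idi1, and in 30.5% of all windows. The sterol regulatory element was searched as TCACNCCAC on both strands and matched none of the 6 windows and 0.974% of all windows. These are matches of letters and no measure of binding.

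All 8 genes were well above background on 12 of 12 arrays, as the extraction software flags it, and no spot of any array was saturated. Levels below are log2 signals minus the median of the array, so that a level of 0 is the median probe. The median signal ranged from 23.5 on the injected nude nerve to 122 on the rostral wild-type cord, and the injected nude nerve had the lowest share of spots well above background (59.5%). The markers of DRG neurons were above background for 10 of 10 genes on every DRG array, and those of cord neurons for 9 of 9 on every cord array. Many were so elsewhere too. The DRG markers were above background for 8 of 10 on every cord array and 4 to 9 on the nerve arrays. The cord markers were above background for 7 or 8 of 9 on the DRG arrays and 2 to 6 on the nerve arrays. Slides were inferred: arrays with the same scan date in the file headers were taken to share a slide. The 8 arrays of the first slide so inferred held all nude arrays and the wild-type nerves. The 4 of the second held the wild-type DRG and cord. Rat type and slide thus cannot be told apart in the DRG and cord, while both arrays of every comparison of sides shared a slide.

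In the nerve, all 8 synthesis genes were lower on the injected than on the contralateral side in both rat types. Hmgcs1, which makes the HMG-CoA from which mevalonate is formed, had a level of 8.38 on the wild-type injected nerve and 10.18 on its contralateral counterpart. In nude rats it stood at 8.34 on the injected and 10.32 on the contralateral nerve. The 2 injected arrays were the lowest of the 12 and the 2 contralateral arrays the highest, a 3.47-fold difference in wild-type and a 3.94-fold difference in nude rats. Idi1, the isomerase that makes the building block of all isoprenoids, had 6.07 and 7.64 in wild-type and 6.30 and 7.86 in nude rats, injected side first. Its injected nerves were likewise the lowest and its contralateral nerves the highest of the 12 arrays. Fdps, farnesyl diphosphate synthase, had 5.08 and 6.20 in wild-type and 5.11 and 6.28 in nude rats.

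The enzymes after farnesyl diphosphate varied more among themselves. Fdft1, squalene synthase and the first enzyme committed to sterols, had the smallest difference, with 5.95 on the wild-type injected nerve, 6.60 on the opposite one, and 6.01 and 6.70 in nude rats. Sqle, the epoxidase of squalene, had 4.34 and 5.76 in wild-type and 4.32 and 6.05 in nude rats. Lss, the cyclase that forms lanosterol, had 3.07 and 4.24 in wild-type and 3.07 and 4.51 in nude rats. The injected arrays of the rat types were thus nearly equal for both Sqle and Lss. Cyp51, the lanosterol demethylase, had 3.77 and 4.93 in wild-type and 3.53 and 5.06 in nude rats. Dhcr7, which catalyses the last step to cholesterol, had 1.85 and 2.66 in wild-type and 1.72 and 2.99 in nude rats. For all 8 genes the groups did not overlap, as both injected arrays lay below both contralateral ones, an order that 38% of the 11444 genes tested also had in the nerve. For 7 of the 8, all but Fdft1, the injected nerves were the lowest 2 of the 12 arrays. How many of all genes had this order over the 12 arrays, or the orders of Hmgcs1 and Idi1 above, was not counted.

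**Figure D1:**
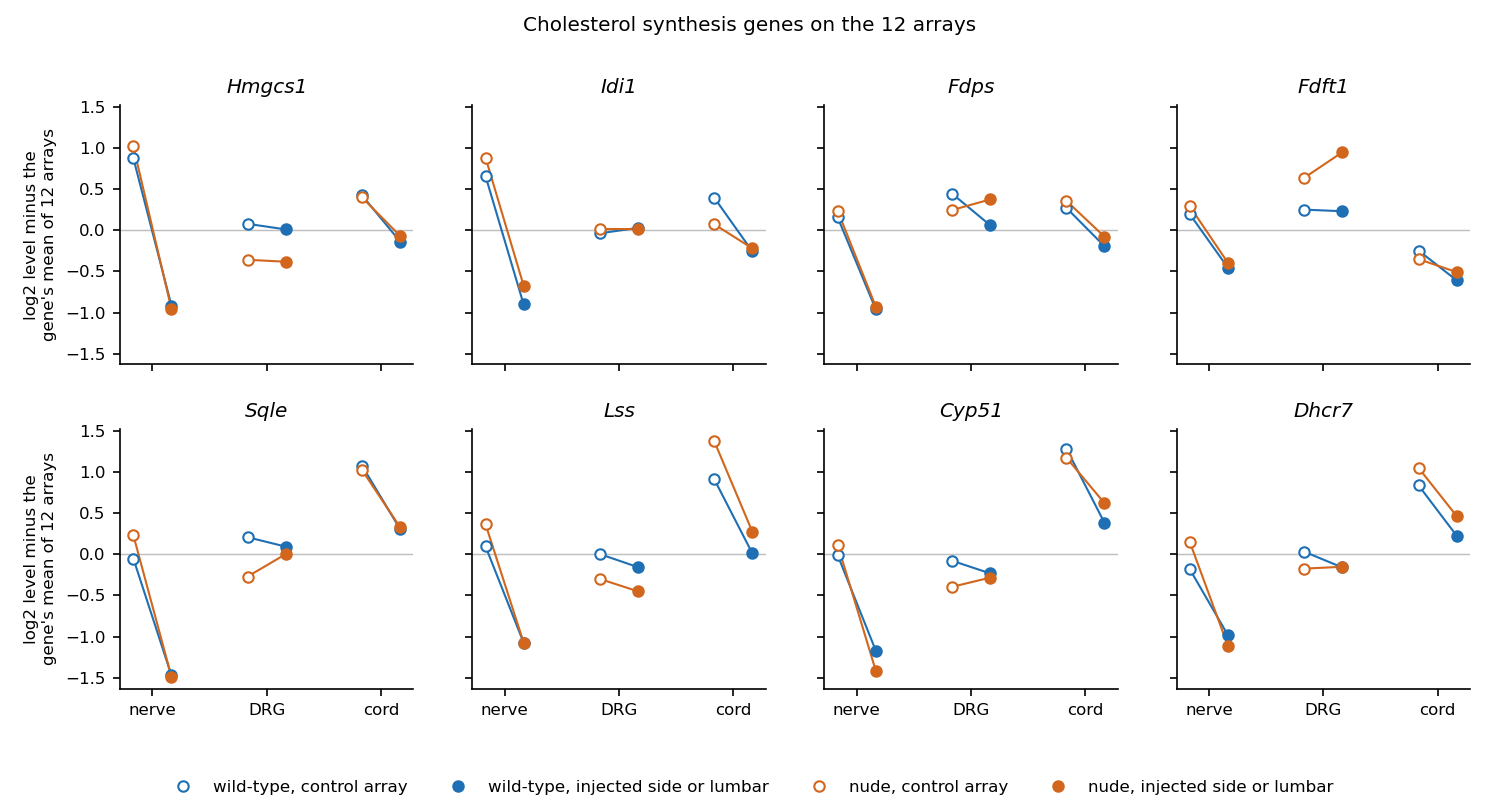
Log2 level of each gene on each array minus the gene's mean over the 12 arrays (y axis) by tissue (x axis). Open points are the contralateral or rostral arrays, filled points the injected-side or lumbar arrays, colours the rat types, and each line joins the arrays of a pair. The nerve lines run steeply down for 7 genes and less so for Fdft1, the DRG lines are flatter and the cord lines run down by less.

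No condition had a replicate array, so the sides were tested with limma over both rat types, in which the disagreement of the rat types about the difference between sides, pooled over the 3 tissues, served as the error. In the nerve, 7 of 8 genes fell with an adjusted p under 0.05, against 8.6% of the 11444 genes tested. Hmgcs1 fell by 1.89 on the log2 scale (SE 0.18, adjusted p = 0.00498, 2 pairs). Sqle fell by 1.57 (SE 0.20, adjusted p = 0.00831) and Idi1 fell by 1.56 (SE 0.19, adjusted p = 0.00789). The falls of Cyp51 (1.35), Lss (1.31), Fdps (1.14) and Dhcr7 (1.03) had adjusted p values from 0.0109 to 0.0237. Fdft1, with a difference of -0.67 (SE 0.19), did not pass (adjusted p = 0.0621). The median difference of the 8 genes was -1.33 and that of all genes tested -0.14.

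The test rested on few residual degrees of freedom (3). When normexp was applied to the median spot signal in place of the processed signal, which changed the background model and the spot statistic together, 0 of 8 genes passed, as did 0 of all 11444 genes, although the differences of the 8 genes then ran from -2.43 for Hmgcs1 to -1.01 for Dhcr7. Over all genes 984 fell and 402 rose, but 647 fell and 545 rose when the arrays were scaled to their 75th percentile, which moved the median of all genes from -0.14 to 0.04. Dhcr7 lost its call when any 1 array other than the 2 wild-type nerves was left out (adjusted p between 0.0617 and 0.0641, and between 0.00134 and 0.179 over all alternatives). With no filter and no floor Dhcr7 (adjusted p = 0.0635) and Fdps (adjusted p = 0.0526, and between 0.000592 and 0.168 over all alternatives) lost theirs, which left 5 of 8, and Fdft1 gained one without either wild-type nerve (adjusted p = 0.0477, and between 0.0117 and 0.191 over all alternatives). Taken as pairs, with 1 array per condition and no test, 6 of 8 genes were at least 2-fold lower on the injected than on the other side in wild-type rats, where 5.01% of genes were. In nude rats 7 of 8 were, with 14.4% of genes. The median log2 ratio of the 8 genes was -1.17 in wild-type rats, beside -0.05 for all genes, and -1.49 in nude rats, beside -0.39 for all genes.

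**Figure D2:**
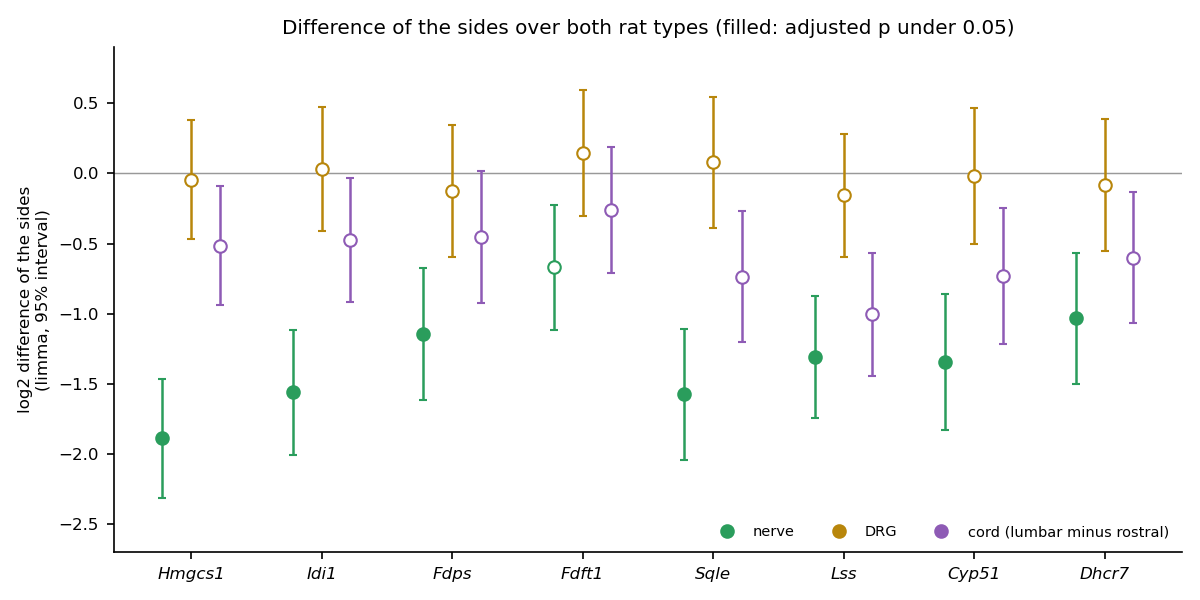
Difference of the sides in log2 units (y axis) for each gene (x axis) in the nerve, the DRG and the cord, over both rat types, with 95% intervals from limma. Filled points passed an adjusted p of 0.05: these are 7 of the 8 nerve values, from -1.89 for Hmgcs1 to -1.03 for Dhcr7, and no value of the DRG or cord.

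Most of the remaining genes of the pathway fell in the nerve as well. Of 12 measured, 10 fell, 0 rose, and the median difference was -1.16. Sc5d, which inserts a double bond late in the pathway, fell by 1.60, Msmo1 and Hsd17b7, which help to remove methyl groups from lanosterol's descendants, by 1.53 and 1.33, and Acat2, the thiolase at the entry of the pathway, by 1.33. The falls of Tm7sf2 (1.21), Nsdhl (1.10), Pmvk (1.08), Mvd (0.94) and Mvk (0.89) were smaller. Ebp had a difference of -0.69 and did not pass (adjusted p = 0.0678). Of 7 genes that draw on mevalonate products for prenylation, dolichol and ubiquinone, 1 fell, the farnesyltransferase subunit Fnta (-0.93, adjusted p = 0.0330), with a median of -0.41.

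Among 10 measured regulators and other targets of SREBP2, 3 fell and 0 rose. Among these, Insig1, which holds SREBP back in the endoplasmic reticulum when sterols are plentiful, fell by 1.51 and Stard4, a sterol carrier, fell by 1.18. Srebf2 itself had a difference of -0.68 (adjusted p = 0.0642) and did not pass. The partners that carry and cut SREBP did not pass either, with Scap at -0.01, Mbtps1 at -0.74 and Mbtps2 at -0.10, nor did Insig2 (-0.03) and Mylip (-0.07), a ubiquitin ligase induced by LXR. Srebf1 was not measured by a named probe here.

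Genes for export, storage and breakdown of sterols were split, with 6 of 12 above 0, 6 below and a median of 0.15. Of these 12, 2 rose and 0 fell. Abca1, which loads cholesterol onto apolipoproteins, rose by 1.96 (SE 0.20, adjusted p = 0.00641), where 3.51% of all genes rose, with levels of 3.32 and 1.36 in wild-type and 3.03 and 1.07 in nude rats, injected side first. Apoe, the main lipid carrier of the nervous system, rose by 1.78 (adjusted p = 0.00745). Scarb1 (0.73), Abcg1 (0.63) and Lipa (0.63) had adjusted p values from 0.0674 to 0.111. Fatty acid synthesis fell with the sterol genes, as 8 of 12 measured genes passed with a median difference of -1.42. Scd, the desaturase that makes oleate, fell by 3.30 (SE 0.41), Thrsp, a lipogenic factor, by 2.45, Elovl6 by 1.87 and Me1 by 1.81.

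**Figure D3:**
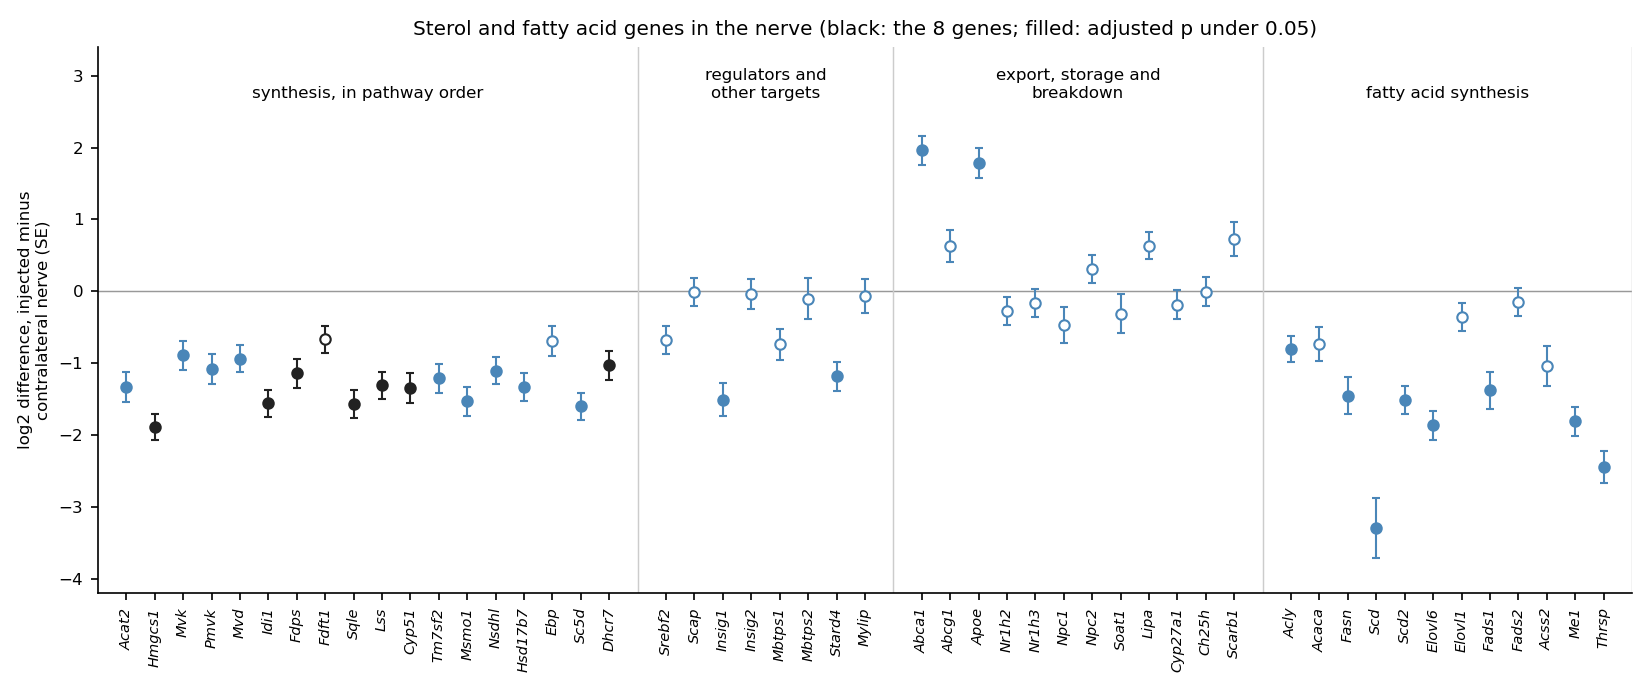
Difference between injected and contralateral nerve in log2 units with its SE (y axis) for the genes of cholesterol synthesis in the order of the pathway, regulators, export genes and fatty acid synthesis (x axis). Black points are the 8 genes, blue points the others, and filled points passed an adjusted p of 0.05. Some genes of the lists are not shown. All synthesis genes shown lie below 0, and Abca1 and Apoe are the filled points above 0.

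Markers of other cells moved with these values. Of 6 measured adipocyte genes 4 fell, among them Adipoq, which fell by 3.09, and the summed signal of the 10 adipocyte genes on the arrays was 380 and 469 array medians on the injected and 904 and 1019 on the contralateral nerves of nude and wild-type rats. Adipocytes synthesise fatty acids and express Scd and Thrsp as well. All 14 macrophage genes had differences above 0 and 2 rose, Gpnmb by 2.10 and Trem2 by 1.69, with a summed signal of 3150 and 4344 on the injected and 2403 and 1824 on the contralateral nerves. The red cell genes Hbb and Alas2 rose by 2.46 and 2.57. Muscle genes were brighter on the injected wild-type nerve (summed signal 200 against 62.2) and not on the injected nude nerve (33.0 against 41.4), and 0 of 13 passed. The part of these cells in the results was not tested.

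Beside the synthesis genes, 9 of 15 genes of Schwann cell myelin fell in the nerve, with a median difference of -1.19. Pmp2, a carrier of fatty acids and cholesterol in the sheath, had levels of 8.28 and 9.76 in wild-type and 8.15 and 9.69 in nude rats, injected side first, and fell by 1.51 (SE 0.19, adjusted p = 0.00881). Drp2 fell by 1.81 and Prx, which links the sheath to its cytoskeleton, fell by 1.58. The lipid enzymes of myelin, Fa2h and Ugt8, fell by 1.58 and 1.19. Mbp (-0.07) and Mag (0.10) did not pass. The oligodendrocyte myelin list, which shares 7 of its genes with the Schwann cell list, had 4 falls among 15 and a median of -0.07. The fall of the synthesis genes was thus close in size to that of many Schwann cell myelin genes, but their difference from these was not tested.

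In the DRG, the levels of the synthesis genes lay close together on both sides, and the groups overlapped for all 8 genes. Hmgcs1 had 9.31 and 9.38 in wild-type and 8.92 and 8.94 in nude rats, with the side of the injection given first. Idi1 varied least, between 6.94 and 7.01 over the 4 arrays. Fdps had 6.10 and 6.49 in wild-type but 6.42 and 6.29 in nude rats. Fdft1 was the 1 gene whose nude arrays, at 7.36 and 7.05, both lay above the wild-type ones, at 6.64 and 6.66. For Lss, at 3.99 and 4.15 in wild-type and 3.70 and 3.85 in nude rats, it was the wild-type arrays that lay higher, as they did for Hmgcs1, Sqle and Cyp51. How many of all genes had either order of the rat types was not counted. Sqle had 5.91 and 6.02 in wild-type and 5.82 and 5.54 in nude rats, so that the rat types moved in opposite ways. Cyp51 did likewise, with 4.72 and 4.87 in wild-type and 4.66 and 4.55 in nude rats. Dhcr7 had 2.68 and 2.87 in wild-type and 2.69 and 2.66 in nude rats. None of the 8 genes had both injected-side arrays below both contralateral ones, against 8.72% of genes.

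The differences between the sides of the DRG ran from -0.15 for Lss to 0.15 for Fdft1, and 0 of 8 genes passed limma's test, 0 of them at an unadjusted p under 0.05. Over all genes 0% fell and 0% rose there. The 95% intervals reached from -0.47 to 0.38 for Hmgcs1 and from -0.60 to 0.34 for Fdps, so that changes of either sign up to about these sizes could not be told from 0. In pairs, wild-type rats had a median log2 ratio of -0.13 and nude rats one of 0.07, and 0 of 8 genes were 2-fold lower, beside 0.582% and 0.785% of all genes. Of the Schwann cell myelin genes 0 of 15 passed, with a median of -0.10. Muscle genes differed between the nude DRG arrays, with a summed signal of 155 array medians on the side of the injection against 101, and 11 against 7 of 15 genes above background, and their part was not tested.

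In the dorsal cord, all 8 genes were lower in the lumbar than in the rostral arrays in both rat types, by less than in the nerve. Lss, the lanosterol cyclase, had the largest difference, with 4.16 in the lumbar and 5.06 in the rostral wild-type cord and 4.42 and 5.52 in nude rats. Sqle had 6.12 and 6.89 in wild-type and 6.14 and 6.84 in nude rats, lumbar first. Cyp51 had 5.33 and 6.23 in wild-type and 5.57 and 6.12 in nude rats. The rat types were nearly equal for Sqle in both segments. Dhcr7 had 3.06 and 3.68 in wild-type and 3.30 and 3.89 in nude rats, and Hmgcs1 had 9.16 and 9.72 in wild-type and 9.23 and 9.70 in nude rats. Among the isoprenoid enzymes, Idi1 had 6.72 and 7.37 in wild-type and 6.76 and 7.05 in nude rats, and Fdps 5.85 and 6.32 in wild-type and 5.96 and 6.40 in nude rats. Fdft1 again differed least, with 5.80 and 6.16 in wild-type and 5.90 and 6.06 in nude rats. Both lumbar arrays lay below both rostral ones for 8 of 8 genes, an order that 33.4% of all genes had.

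The differences ran from -1.003 for Lss (SE 0.19, adjusted p = 0.249) to -0.26 for Fdft1, with a median of -0.56. Of the 8 genes 0 passed limma's test. An unadjusted p under 0.05 was reached by 6 of them, a level at which all genes were not counted. No gene of the 11444 fell past the threshold in the cord (0%). The 95% interval of Lss reached from -1.44 to -0.56. Lss did pass when only genes well above background on all arrays were tested (adjusted p = 0.0180) and with an intensity trend in the prior (adjusted p = 0.0184), while its adjusted p over all genes stayed above the threshold in every other setting. In pairs, the 8 genes had a median log2 ratio of -0.63 in wild-type rats and one of -0.51 in nude rats, beside -0.07 for all genes in each. None of the 8 was 2-fold lower in wild-type rats, with 1.39% of genes, and 1 was in nude rats, Lss at -1.10, with 1.07% of genes.

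The rest of the pathway and most genes of central myelin had the same direction in the cord, whereas those of peripheral myelin were split, with 8 of 15 above 0, 7 below and a median of 0.26. All 12 other synthesis genes had differences below 0 (median -0.57), among them Sc5d at -0.72 and Tm7sf2 at -0.68, and 0 passed. Of the 15 oligodendrocyte myelin genes 14 were below 0 with a median of -0.60, and 0 passed. Mog, a surface protein of central myelin, had 6.08 and 6.69 in wild-type and 6.05 and 6.63 in nude rats, lumbar first. Pmp2 stood at 6.22 in the lumbar and 3.47 in the rostral wild-type cord and at 5.88 and 2.93 in nude rats, and of the Schwann cell list 5 of 15 genes rose, among them Prx by 2.86, Pmp2 by 2.85, Cldn19 by 2.36 and Pmp22 by 2.08, where 0.122% of all genes rose. In the nude cord pair 8 of the 15 were below 0 (median -0.04). All 9 measured neuron genes of the cord had differences above 0 (median 0.38), and 8 of 10 genes of astrocytes lay below 0 (median -0.32). The summed signal of the Schwann cell list was 5697 and 5765 array medians in the lumbar and 4796 and 6349 in the rostral arrays of wild-type and nude rats, and that of the oligodendrocyte list, which shares Mbp, 5692 and 5854 against 5284 and 6925. How far the makeup of the samples bears on the synthesis genes was not tested, and segment and injection cannot be told apart.

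**Figure D4:**
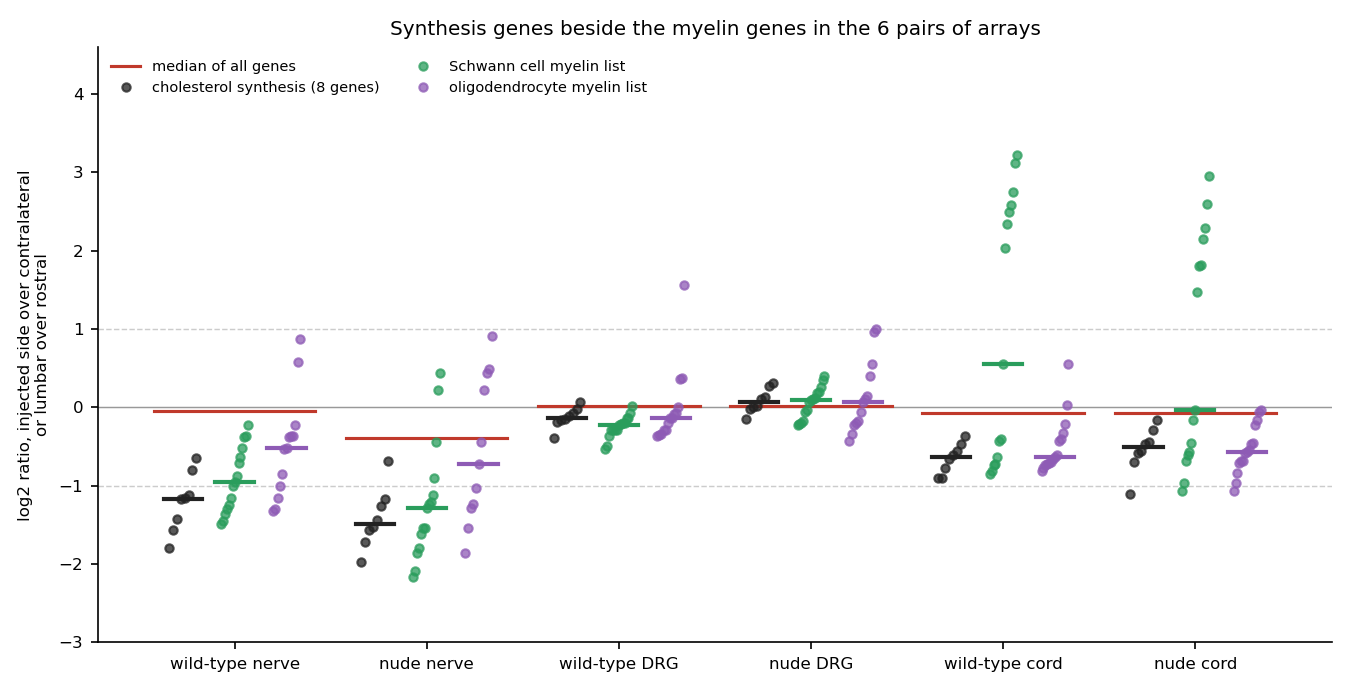
Log2 ratio of injected side over contralateral, or lumbar over rostral (y axis), in each of the 6 pairs of arrays (x axis) for the 8 synthesis genes and the 2 lists of myelin genes. Points are genes, short bars medians of a list, red bars medians of all genes, and dashed lines 2-fold. In the nerve pairs the synthesis genes (medians -1.17 and -1.49) lie with the Schwann cell genes, and in the cord pairs (medians -0.63 and -0.51) with the oligodendrocyte genes, while 7 Schwann cell genes lie above 2-fold in each cord pair.

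Whether the difference of sides was itself larger in the nerve was tested by contrasts in the same fit, added after the values were seen, any 2 of which share the arrays of a tissue. Against the DRG, the nerve difference was more negative for 8 of 8 genes, from -0.81 for Fdft1 to -1.84 for Hmgcs1. How many of all genes had this sign was not counted, and their median was -0.16. Only Hmgcs1 passed (-1.84, SE 0.25, adjusted p = 0.0497), with 0.201% of genes lower past the threshold. All 8 had an unadjusted p under 0.05, but the share of all genes at that level was not counted for any contrast. Next were Idi1 (-1.59, adjusted p = 0.0561) and Sqle (-1.65, adjusted p = 0.0589). The call of Hmgcs1 was at the threshold: over the alternatives that ended it, its adjusted p ran from 0.0502 with outlier spots kept to 0.328 with normexp. Left out in turn, any of the 4 DRG arrays (adjusted p = 0.299 to 0.313) and any of the 4 cord arrays (adjusted p = 0.0937) ended it, and without either wild-type nerve 7 of 8 genes passed. Against the cord, 0 of 8 genes passed, with 0.926% of genes lower past the threshold, and Hmgcs1 came nearest (-1.37, adjusted p = 0.0538). There, 4 of the 8 had an unadjusted p under 0.05. Between cord and DRG, 0 of 8 passed, with 0% of genes lower past the threshold, and differences ran from -0.85 for Lss to -0.33 for Fdps. Of the 8, 3 had an unadjusted p under 0.05.

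The tissues differed in the level of single enzymes, most of all those after squalene. Over the 4 arrays of a tissue, the level of Cyp51 was 5.81 ± 0.43 (SD, n = 4 arrays) in the cord, 4.70 ± 0.13 in the DRG and 4.33 ± 0.79 in the nerve. That of Sqle was 6.50 ± 0.42 in the cord, 5.82 ± 0.20 in the DRG and 5.12 ± 0.92 in the nerve. Lss followed the same order with 4.79 ± 0.62, 3.92 ± 0.19 and 3.72 ± 0.76, and so did Dhcr7 with 3.48 ± 0.37, 2.72 ± 0.10 and 2.30 ± 0.61. The large SD of the nerve holds the difference between its sides. Over both sides, Hmgcs1 and Idi1 had nearly the same mean in every tissue, at 9.45, 9.13 and 9.30 for Hmgcs1 and 6.97, 6.98 and 6.97 for Idi1 in cord, DRG and nerve. The contralateral and rostral arrays alone were not alike. On these, Hmgcs1 had 9.72 and 9.70 in the cord, 9.38 and 8.94 in the DRG and 10.18 and 10.32 in the nerve, wild-type first. Idi1 had 7.37 and 7.05 in the cord, 6.94 and 6.99 in the DRG and 7.64 and 7.86 in the nerve. Fdft1 was highest in the DRG, at 6.92 ± 0.34, above the nerve at 6.31 ± 0.39 and the cord at 5.98 ± 0.16. Fdps had 6.32 ± 0.17 in the DRG, 6.13 ± 0.27 in the cord and 5.67 ± 0.66 in the nerve.

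In limma's fit of the tissues, with rat type and side as a block, 4 of 8 genes were higher in cord than in nerve: Cyp51 by 1.49, Sqle by 1.38, Dhcr7 by 1.18 and Lss by 1.07 (adjusted p from 0.000479 to 0.00359), with 30.2% of all genes higher and 35.5% lower. Hmgcs1, Idi1, Fdps and Fdft1 did not pass. Both sides of the nerve, and so the injected nerves, enter these differences. On the rostral cord and contralateral nerve arrays alone, wild-type first, Cyp51 had 6.23 and 6.12 against 4.93 and 5.06. Sqle had 6.89 and 6.84 against 5.76 and 6.05, Dhcr7 3.68 and 3.89 against 2.66 and 2.99, and Lss 5.06 and 5.52 against 4.24 and 4.51. These arrays alone were not tested. Hmgcs1 and Fdps depended on the scaling. The Hmgcs1 difference was 0.15 with median centring but 1.19 with quantile normalization (adjusted p = 0.00984) and 1.07 with cyclic loess (adjusted p = 0.0221). That of Fdps was 0.46 with median centring (adjusted p = 0.0717) but 0.52 at the 75th percentile (adjusted p = 0.0287), 0.72 with quantile normalization (adjusted p = 0.00401) and 0.92 with cyclic loess (adjusted p = 0.00134), and it also passed with normexp (0.98, adjusted p = 0.0475), with the authors' values and without the contralateral nude nerve. Against the DRG, 3 genes were higher in the cord, Cyp51 by 1.11, Lss by 0.87 and Dhcr7 by 0.76, and Fdft1 was lower by 0.95 (background 35% higher and 25.5% lower). Between nerve and DRG 0 of 8 genes were higher and 2 were lower in the nerve, Fdps (-0.66, adjusted p = 0.0257) and Fdft1 (-0.61, adjusted p = 0.0306), with 32.8% of genes higher and 13.5% lower. The injected nerves of Fdps (5.08 and 5.11) lay below the DRG range of 6.10 to 6.49, while its contralateral nerves (6.20 and 6.28) lay inside it. The calls of both genes were lost without the injected nude nerve (adjusted p = 0.0783 for Fdps and 0.0930 for Fdft1), without the injected wild-type nerve (0.0834 and 0.0788) and without the injected-side DRG of either rat type (0.0678 to 0.0956), and that of Fdft1 also without the contralateral nude DRG (0.0546). With a slide term the differences were -0.67 for Fdps and -0.71 for Fdft1, and within the nude arrays -0.66 and -0.85, as large as before or larger, though none of these passed (adjusted p from 0.0799 to 0.257). Scaling moved the split of all genes there from 3749 higher and 1542 lower to 2498 and 2293 at the 75th percentile and 2355 and 2489 with cyclic loess. For cord against DRG the split went from 4010 higher and 2913 lower to 3295 and 3647 at the 75th percentile, and for cord against nerve from 3456 and 4066 to 4385 and 3314 with cyclic loess. Of the other synthesis genes, 7 of 12 were higher in cord than in nerve, among them Mvd (1.83) and Sc5d (1.40), and Nsdhl (-0.93) and Ebp (-0.52) were lower. Of the oligodendrocyte myelin genes 13 of 15 were higher in the cord.

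The rat types did not differ past the threshold for any of the 8 genes in any tissue. In the nerve, differences of nude minus wild-type ran from -0.06 for Cyp51 to 0.23 for Idi1 (background past the threshold 0.00874% higher and 0% lower). There, 0 of the 8 genes had an unadjusted p under 0.05. In the DRG, Fdft1 was 0.55 higher in nude rats (95% interval 0.11 to 1.00, adjusted p = 0.354). Hmgcs1 had -0.42 (95% interval -0.84 to 0.01, adjusted p = 0.434). Past the threshold, 0.0262% of all genes were higher and 0% lower. An unadjusted p under 0.05 was reached by 1 of the 8 genes, a level at which all genes were not counted. In the cord, differences ran from -0.14 for Idi1 to 0.36 for Lss (background past the threshold 0.00874% higher and 0% lower), and 0 of the 8 genes had an unadjusted p under 0.05. Rat type, day and strain cannot be told apart here, nor can the slide for the DRG and cord.

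Members varied together within tissues, as did many other genes. After the mean of each tissue was subtracted, the mean of the 8 genes over the 12 arrays correlated with Sqle at r = 0.990, Cyp51 at 0.987, Fdps at 0.979, Dhcr7 at 0.978, Hmgcs1 at 0.972, Idi1 at 0.967 and Lss at 0.946, each of which is part of that mean, and with Fdft1 at 0.741. Without the nerve arrays the value of Fdft1 was 0.320 and those of the others lay between 0.843 and 0.985. Of 8360 other genes well above background on all arrays, the most alike were Fez1, a kinesin adaptor (r = 0.991), Msmo1 (0.987), Ugt8 (0.985), Ahcyl2 (0.984), Hsd17b7 (0.984), Acly, which supplies the acetyl-CoA of lipid synthesis (0.983), Amz2 (0.983), H2ac25 (0.982), Ppdpf (0.982) and Pcsk6 (0.981). Of these, 2 belong to cholesterol synthesis and 1 to myelin lipids. High values were not particular to the 8 genes. Among the 8360 others, Elovl6 at r = 0.947 had rank 69, Mvk at 0.912 rank 267 and Elovl1 at 0.717 rank 2147. The least alike were Akr1b8 (-0.944), Ckap4 (-0.942) and Slc43a2 (-0.935). Without the nerve arrays Fez1 had 0.984, Ugt8 0.929 and Slc43a2 -0.675. These correlations are descriptions over 12 arrays in 6 pairs, from 2 slides.

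Each of the 8 genes had 1 probe apart from Fdps, which had 2. The second Fdps probe gave -1.19 and -1.57 in the wild-type and nude nerve pairs, where the probe used gave -1.12 and -1.17. In the DRG pairs it gave -0.22 and 0.30, and in the cord pairs -0.67 and -0.51, with the sign of the probe used in all 6 pairs.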

How the data were processed

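The 8 genes and all lists of genes were chosen with earlier results of these data known. Total RNA of 3 rats per pool was labelled with Cy3 and hybridised to Agilent rat arrays, 1 array per condition. The deposited scanner files hold, per spot, the background-subtracted and detrended signal intensity, and the authors' 0 or 1 flags for saturation, outliers and signal well above background. The submitters' processing notes name Feature Extraction 10.5, while the file headers name a later release. The authors' normalized log2 values, described as scaled to the median, had nearly identical distributions on all arrays and served as an alternative.

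Here log2 intensity minus the array median was used, without control and outlier spots, floored at the lowest signal well above background. Probes were named through RefSeq (GRCr8), and the brightest probe stood for a gene. Genes well above background on at least 4 of 12 arrays (11444) were fitted with limma 3.58.1 in R 4.3.3 and adjusted by Benjamini-Hochberg, with a threshold of 0.05. The tissue fit took rat type and side as a block (6 residual degrees of freedom), and the side fit pooled the rat types (3). No p-value measures the spread between like arrays, as no condition had a replicate. The error of the side fit is the disagreement of the rat types about the sides. That of the tissue fit is how the tissue differences vary over rat types and sides, so the nerve's own difference of sides counts as error there. The fits were tested on simulated data with 200 genes changed. The side fit recovered 0% of 2-fold and 77.0% of 4-fold changes, and the tissue fit 74.5% and 95.0%. In the nerve data 984 genes fell and 402 rose, so the cutoff of the simulation need not be that of the data. A gene that did not pass is not shown to be unchanged. Other scalings, normexp on the median spot signal, probe rules, filters, slide terms and each array left out were tried, as was 1.5-fold in place of 2-fold. Genes named were the 8, the lists and the 10 most alike. The number of arrays limits the precision. Some genes of the lists enter the counts and medians but are not reported here by name.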

Additional observations from a re-analysis of the deposited data

Results flagged for a closer look

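The difference between injected and contralateral nerve was more negative than that between the sides of the DRG for Hmgcs1, by -1.84 on the log2 scale, and the limma contrast of the 2 differences passed (adjusted p = 0.0497). Hmgcs1 was the only 1 of the 8 genes for which this test of nerve against DRG passed. The contrast was added after the values were seen, and the call was at the threshold. Among other settings, it was lost with outlier spots kept (adjusted p = 0.0502), at the 75th percentile (adjusted p = 0.0615) and with normexp (adjusted p = 0.328). Leaving out any 1 DRG or cord array ended it too.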

How the results depend on the processing

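A block of replicate numbers could not be fitted because each condition had 1 array, and the sides were compared within each rat type. Across the alternatives, 601 summary values moved little and 55 moved, and of 2600 values for single genes 2415 kept their call and size, 67 gained a call, 55 lost one and 63 moved. No called value reversed. Normexp, which was run on the median spot signal and so changed the background model and the spot statistic together, took the genes that fell in the nerve from 7 to 0, and leaving out 1 array gave 6 to 8. Over all genes, 984 fell in the nerve, against 0 with normexp, 271 with no filter, 1808 when all arrays had to be above background, 1773 with an intensity trend, and 291 to 3000 with 1 array left out, the last without either wild-type nerve. In the cord, the genes lower in the lumbar arrays went from 0 to 1 with the filter on all arrays and with the trend. For the nerve effect minus the DRG effect, the count of 1 became 0 at the 75th percentile, with normexp, with the mean of probes, with outlier spots kept and with no filter, 7 with the filter on all arrays, 6 with the trend, and 0 to 7 with 1 array left out. For the nerve effect minus the cord effect, the count of 0 became 1 at the 75th percentile and with loess, 2 with the filter on all arrays and with the trend, and 0 to 2 with 1 array left out. The count of genes lower in nerve than in DRG was 2, and 4 at the 75th percentile, 5 with quantile normalization, loess and the authors' values, 1 with the mean of probes, no filter or no block, 0 with normexp, with a slide term and within the nude arrays, and 0 to 4 with 1 array left out. Between cord and DRG the 3 higher genes became 1 within the nude arrays and the 1 lower gene became 0 with normexp. The median of the 8 genes in the nude nerve pair was -1.49, and -1.19 at the 75th percentile, -1.13 with quantile normalization, -1.15 with loess, -1.14 with the authors' values and -2.22 with normexp. With normexp the median was 0.19 in the wild-type DRG pair (-0.13) and -0.85 in the wild-type cord pair (-0.63), where 3 genes were then 2-fold lower. At 1.5-fold, 5 genes were lower in the cord pair of wild-type rats and 3 in that of nude rats. The cause of these changes was not tested. Of the values of single genes, 122 changed sign, 0 of them called. With 1 pool per condition, dim genes such as Dhcr7 were measured with least signal above background.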
